A study of Mus musculus with 7 samples.

Results

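The haemoglobin genes described here were 5 genes taken by symbol from the 7 deposited tables, out of 21414 genes named in all of them. They were Hba-a1 and Hba-a2, which encode the adult alpha chain of haemoglobin, Hbb-bs and Hbb-bt, which encode the adult beta chain, and Alas2, which encodes the erythroid enzyme of the first step of haem synthesis. Estimated counts and TPM (transcripts per 1000000) were summed over the transcripts of each symbol in each cell. All 5 had entries in every table, and no filter on low values was applied to them.

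Each table held the RNA of 1 mouse neuron, sucked into the patch pipette after recording in a hippocampal slice. Per the labels, the 7 cells formed 1 group of long-range VIP-GABAergic cells in CA1 stratum oriens/alveus, taken from VIP-eGFP mice (MMRRC strain #31009) that had no experimental treatment. The series kept only neurons with an axon followed from CA1 into the subiculum, and cDNA was made by SMART-Seq v4, which marks no strand. The labels tie no animal to a cell, so the group counted as 1 sample and no test was made between cells.

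The libraries held 1052327 to 3398521 estimated counts. The table of cell 7 stood apart because it lists Ensembl transcripts, while cells 1 to 6 have RefSeq transcripts, so results that rest on cell 7 are also given without it. As a check of the label, 8 to 10 of 10 neuron and VIP interneuron genes were above 1 TPM per cell, the threshold used here for detection, and their summed level was 654 to 6891 TPM. These genes included Snap25 and Syt1, which serve transmitter release, and Gad1, which makes GABA. Cell 6 had 9 of the 10 above 1 TPM, where 17.3% of protein-coding genes were, and cell 7 had 8, where 14.6% were. Slc32a1 was at 0 in both of these cells, and Gad2 was at 0.218 TPM in cell 7.

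Haemoglobin is a tetramer of alpha and beta chains, each holding a haem group that binds oxygen, and it fills the red blood cell. Mature red cells have no nucleus but keep some globin RNA from their precursors, and they circulate in the capillaries of the brain. Haemoglobin transcripts have also been reported in neurons and glia of rodents and humans. Alas2 is expressed in red cell precursors, where it sets the supply of haem for globin, whereas its companion gene Alas1 serves other tissues.

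On mm10 the alpha genes lie on the plus strand of chromosome 11, Hba-a1 at 32283511 to 32284465 and Hba-a2 at 32296489 to 32297298, in the GENCODE M21 annotation. The beta genes lie on the minus strand of chromosome 7, Hbb-bs at 103826534 to 103828096 and Hbb-bt at 103812524 to 103813996. Alas2 lies on the plus strand of chromosome X at 150547375 to 150570638. Within each cluster the copies are nearly identical, and this decides how far the counts of a single copy can be read. The coding sequences of Hba-a1 and Hba-a2, both 429 bases in 3 exons, differed at 1 base (99.8% identity). Those of Hbb-bs and Hbb-bt, both 444 bases in 3 exons, also differed at 1 base. The stretches around these bases are shown because only there can a coding read tell the copies apart. The capital marks the differing base, 5′ to 3′ on the gene's strand, at chr7:103826665-103826734 for Hbb-bs, chr7:103812656-103812725 for Hbb-bt, chr11:32284308-32284377 for Hba-a1 and chr11:32297125-32297194 for Hba-a2.
Hba-a1: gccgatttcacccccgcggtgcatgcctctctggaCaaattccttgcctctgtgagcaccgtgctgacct
Hba-a2: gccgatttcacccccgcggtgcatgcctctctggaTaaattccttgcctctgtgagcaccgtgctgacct
Hbb-bs: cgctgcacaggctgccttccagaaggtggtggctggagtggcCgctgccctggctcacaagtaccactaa
Hbb-bt: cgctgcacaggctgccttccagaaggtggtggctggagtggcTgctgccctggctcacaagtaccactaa
Of the 31-base words in the coding sequence, 92.2% of those in Hba-a1 were also in Hba-a2 and 93.2% of those in Hbb-bs were also in Hbb-bt. Over the whole GENCODE transcripts, which add the untranslated ends, the shared words made up 71.3% of Hba-a1 and 91.0% of Hba-a2. They made up 66.9% of Hbb-bs and 59.4% of Hbb-bt. No such word was shared between either alpha transcript and either beta transcript, so the alpha and beta sums rest on separate sequence. The split of either sum between its copies is an estimate of the authors' quantification and is uncertain.

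The promoters are shown because the globin genes of both clusters are known to be switched on together in red cell precursors. The windows are RefSeq's, on GRCm38.p6, from 250 bases before to 50 bases after the RefSeq start, on the gene's strand. They lie at chr11:32283422-32283721 (plus) for Hba-a1, chr7:103827879-103828178 (minus) for Hbb-bs, chr7:103813874-103814173 (minus) for Hbb-bt and chrX:150547167-150547466 (plus) for Alas2. Capitals mark matches on either strand to the letters CACCC and CCAAT and to the letters TATAA and GATAA, and matches that touch or overlap form 1 run of capitals.
Hba-a1: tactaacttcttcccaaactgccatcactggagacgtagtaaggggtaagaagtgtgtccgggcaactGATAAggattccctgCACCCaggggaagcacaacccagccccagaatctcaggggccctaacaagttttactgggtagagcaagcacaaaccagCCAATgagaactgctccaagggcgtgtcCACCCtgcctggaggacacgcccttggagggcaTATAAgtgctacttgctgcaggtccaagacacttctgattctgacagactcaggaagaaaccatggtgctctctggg
Hbb-bs: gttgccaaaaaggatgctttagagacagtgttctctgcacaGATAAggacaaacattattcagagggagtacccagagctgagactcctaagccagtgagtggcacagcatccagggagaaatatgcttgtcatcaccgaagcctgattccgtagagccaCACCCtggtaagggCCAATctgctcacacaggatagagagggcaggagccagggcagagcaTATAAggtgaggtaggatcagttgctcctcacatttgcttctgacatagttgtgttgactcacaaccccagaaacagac
Hbb-bt: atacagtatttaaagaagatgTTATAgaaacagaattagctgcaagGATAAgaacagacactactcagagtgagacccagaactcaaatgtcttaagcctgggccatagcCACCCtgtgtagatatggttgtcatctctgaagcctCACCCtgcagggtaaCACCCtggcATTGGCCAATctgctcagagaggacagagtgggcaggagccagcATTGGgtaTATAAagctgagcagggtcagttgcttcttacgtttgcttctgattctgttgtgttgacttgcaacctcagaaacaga
Alas2: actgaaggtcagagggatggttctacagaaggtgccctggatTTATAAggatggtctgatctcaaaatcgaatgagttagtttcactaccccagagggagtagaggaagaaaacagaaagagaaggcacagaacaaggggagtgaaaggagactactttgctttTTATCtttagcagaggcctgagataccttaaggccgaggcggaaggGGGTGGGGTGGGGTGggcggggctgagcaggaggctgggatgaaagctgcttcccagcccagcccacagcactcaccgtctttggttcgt
Among 32851 promoter windows of this length, 57.5% held CACCC, 37.4% held CCAAT, 24.9% held TATAA, 25.4% held GATAA and 1.51% held all 4. All 4 were present in the windows of Hba-a1, Hba-a2, Hbb-bs and Hbb-bt, and that of Alas2 held all but CCAAT. The match of TATAA nearest to the start lay 27 bases before it in Hba-a1, 29 in Hbb-bs and 28 in Hbb-bt, but 207 in Alas2. The Hba-a2 window, not printed, was identical to that of Hba-a1 over the 297 bases they share when shifted by 3 bases. Between Hbb-bs and Hbb-bt, 74.7% of 293 aligned bases were the same. A match describes letters only.

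Haemoglobin transcripts were found in every library, at levels that spread over a 101-fold range, which rested on the end cells and was 24.6-fold without cell 1 and 32.7-fold without cell 2. For cells 1 to 7 in order, the 4 globin genes summed to 104, 10493, 1781, 3388, 801, 961 and 426 TPM. The median was 961 TPM, and log2(TPM + 1) averaged 10.13 ± 2.13 (SD, n = 7 cells). Cell 2 thus stood highest, followed by cells 4, 3, 6, 5 and 7, with cell 1 lowest. Without cell 7 the median was 1371 TPM. These sums leave out the beta copies Hbb-b1 and Hbb-b2, described below, which held 882 TPM in cell 4 and 126 TPM in cell 6. With both copies added, the median over the 7 cells was 1088 TPM. Exact 95% Poisson intervals of neighbours in this order did not overlap, for example 913 to 1011 TPM for cell 6 and 748 to 856 TPM for cell 5. Such intervals cover counting error alone, as PCR copies are not independent molecules, and no second library of a cell exists here to show the technical spread.

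The number of members above 1 TPM was 3 of 5 in cell 1, where 14.8% of 20812 protein-coding genes were, and 4 of 5 in cell 2 (38.7% of those genes). It was 4 in cell 3 (24.8%) and 4 in cell 4 (21.3%). For cell 5 it was 3 (32.6%), for cell 6 it was 4 (17.3%) and for cell 7 it was 2 (14.6%). The members' share was thus above that of protein-coding genes in each library, with only 5 genes behind it.

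The tables were scaled separately, and their protein-coding genes held between 13.1% of TPM (cell 6) and 72.6% (cell 7). Rescaled over the 20812 protein-coding genes named in all tables, the haemoglobin sum had a range of 62.8-fold, and cell 6 (7325) passed cell 3 (6880.5). As estimated counts per 1000000 library counts, the range was 40.1-fold, between 75.7 for cell 1 and 3036 for cell 2. Cells 2 and 4 were the highest and cells 1 and 7 the lowest on all 3 scales. Haemoglobin made up 1.78% of protein-coding TPM in cell 2 and 1.04% in cell 4, but 0.0587% in cell 7 and 0.0284% in cell 1. Of the library totals, cell 2 with the most haemoglobin was also the deepest library, while cell 4, second highest for haemoglobin, had the fewest counts and cell 7, second lowest, the second most. The part of depth in the levels was not tested.

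Haemoglobin was above Vip, the neuropeptide gene that defines these interneurons, in 5 of 7 cells. In cell 4 the haemoglobin sum was 133.8 times the Vip level, at 3388 against 25.3 TPM. The ratio was 5.51 for cell 3, 3.01 for cell 6, 2.44 for cell 2 and 1.39 for cell 5. In cell 1 (104 against 678 TPM) and cell 7 (426 against 5006 TPM) haemoglobin lay below Vip. The spread of this ratio came from both sides, since Vip itself was lowest in cell 4 and highest in cell 7.

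**Figure D1:**
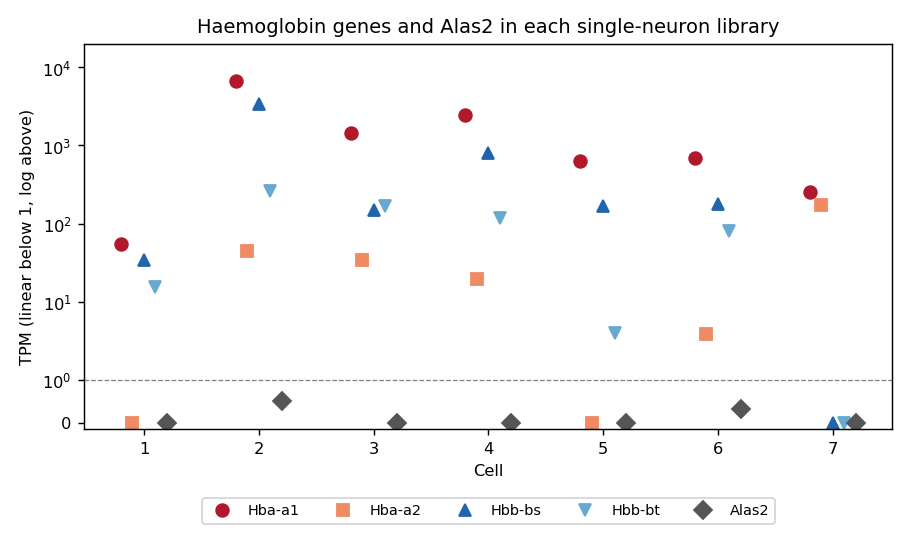
TPM of each member (colour and marker) in cells 1 to 7. The axis is linear below 1 TPM and logarithmic above, and the dashed line is the detection threshold of 1 TPM. Hba-a1 is above the line in every cell and highest in cell 2, Alas2 is below it in every cell, and both beta genes are at 0 in cell 7.

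In the deposited TPM, the alpha gene Hba-a1 was the highest member in every cell, although its split from Hba-a2 is uncertain. For cells 1 to 7 in order, its level was 54.2, 6765, 1430.1, 2438, 626, 701 and 252 TPM. The lowest value, in cell 1, rested on 41 counts (exact 95% Poisson interval 29.4 to 55.6). Hba-a1 was above 1 TPM in 7 of 7 cells, a property of 2.94% of the protein-coding genes. By level it was number 2 among these genes in cell 2, number 6 in cell 4, number 12 in cells 3 and 6 and number 32 in cell 5, but number 772 in cell 7 and 1016 in cell 1. A transcript of the oxygen carrier was therefore among the leading messages of 5 libraries.

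Hba-a2, the other alpha gene, was far lower in the 6 tables made on RefSeq transcripts. For cells 1 to 7 in order, it was at 0, 45.0, 33.9, 19.3, 0, 3.87 and 174 TPM. In cells 1 and 5, a total of 3 counts would have given 3.80 and 2.74 TPM. Hba-a2 was above 1 TPM in 5 of 7 cells. Of protein-coding genes, 18.9% were so in at least 4 cells and 6.48% in at least 6, and the share for at least 5 was not computed. Its share of alpha counts was at most 2.41% among cells 1 to 6 (cell 3, exact binomial interval 1.74 to 3.29%). For cell 7 it was 34.2% (30.6 to 37.8%), with 236 of 692 alpha counts. The transcript index and the cell cannot be told apart in this difference. The alpha sum came out whole within 0.01 counts in 7 of 7 cells.

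Hbb-bs, the more abundant beta gene, reached 3421 TPM in cell 2. For cells 1 to 7 in order, its level was 34.3, 3421, 149.8, 812, 170.2, 176 and 0 TPM. In the same order, Hbb-bt was at 15.3, 262, 167, 118, 4.002, 80.2 and 0 TPM. Both were above 1 TPM in 6 of 7 cells, as were 6.48% of protein-coding genes in at least 6. Hbb-bs exceeded Hbb-bt in cells 1, 2, 4, 5 and 6, but not in cell 3. The share of Hbb-bt in the counts of both ran between 2.33% (cell 5, exact binomial interval 0.763 to 5.37%) and 53.0% (cell 3, 48.2 to 58.0%). It was 31.2% for cell 1, 7.21% for cell 2, 12.8% for cell 4 and 31.6% for cell 6. The intervals of cells 3 and 5 were thus far apart, although the split between copies is uncertain.

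Alpha exceeded beta in TPM in every cell where beta was measured, but by varying amounts. The ratio of alpha to beta was 1.09 for cell 1, with alpha at 54.2 and beta at 49.5 TPM. It was 1.85 for cell 2, at 6809.9 and 3683 TPM, and 4.62 for cell 3, at 1464 and 317 TPM. It was 2.64 for cell 4 (2458 and 930.3 TPM), 3.60 for cell 5 (626 and 174 TPM) and 2.75 for cell 6 (705 and 256 TPM). The median over these 6 cells was 2.70, and the mean was 2.76 ± 1.25 (SD, n = 6 cells). In counts, alpha made up 48.2% of globin for cell 1, with an exact binomial interval of 37.3 to 59.3% that includes equal shares. The share was 61.2% for cell 2 (60.2 to 62.1%), 69.3% for cell 4 (67.4 to 71.1%) and 70.2% for cell 6 (67.8 to 72.5%). It was 75.5% for cell 5 (72.5 to 78.3%) and 79.7% for cell 3 (77.9 to 81.5%). Neighbours among cells 4, 6, 5 and 3 overlapped in their intervals, while cell 2 lay below all 4 and above cell 1. This order turned when the beta copies Hbb-b1 and Hbb-b2 were also counted: cell 4 was then at 53.9% (52.1 to 55.6%), below cell 2 and within the interval of cell 1, and cell 6 at 61.3% (59.0 to 63.7%) overlapped cell 2.

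Cell 7 was the exception, with 692 alpha counts and 0 beta counts. Its alpha sum was 426 TPM. A total of 3 counts on the shortest transcript listed there for Hbb-bs would give 3.10 TPM, and alpha was 137 times this level. The ratio of alpha to beta may be lower than this, as the exact Poisson interval of a count of 0 reaches 3.69 counts. The level of 3.10 TPM also leaves out Hbb-bt. With a count of 0 beside 692 alpha counts, the limit set by 3 counts was a beta share of 0.432%, and the exact binomial interval of the alpha share was 99.47 to 100%. The table of cell 7 has no entries for Hbb-b1 and Hbb-b2, and its transcripts left without a gene name held 0.482% of TPM, more than the 0.0426% held by alpha globin. Whether a beta globin sequence is among them was not tested.

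**Figure D2:**
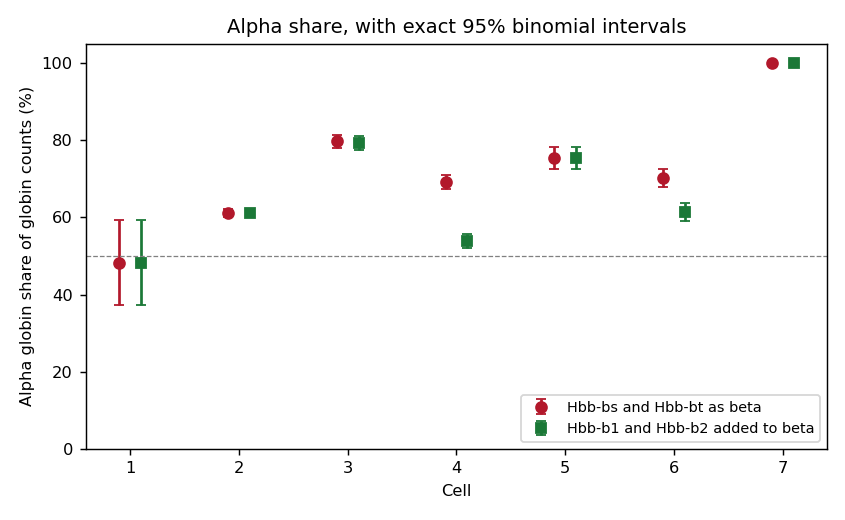
Share of alpha globin (Hba-a1 and Hba-a2) in globin estimated counts for cells 1 to 7, in percent, with exact 95% binomial intervals; the dashed line marks equal shares. Circles count Hbb-bs and Hbb-bt as beta, squares add Hbb-b1 and Hbb-b2, which lowers the share to 53.9% for cell 4 and 61.3% for cell 6; cell 7 is at 100%.

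Beta globin counts of some cells lay on copies outside the 5 genes. Mouse strains carry different versions of the adult beta cluster: Hbb-bs and Hbb-bt belong to the version of the reference genome, and Hbb-b1 and Hbb-b2 to another. The RefSeq tables list both. In cell 4, Hbb-b1 had 456 counts (575 TPM) and Hbb-b2 had 244 counts (307 TPM). Cell 6 had 215 counts (126 TPM) of Hbb-b1, and cell 3 had 12.0 counts (9.34 TPM). Hbb-b2 was at 0 in the other 5 RefSeq tables. Neither copy had a count in cells 1 and 5, and Hbb-b1 had 1.21 counts in cell 2. Among the 6 RefSeq tables, large shares of the other version were thus seen in cells 4 and 6 alone.

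As a share of all beta counts, Hbb-b1 and Hbb-b2 made up 48.2% for cell 4 (exact binomial interval 45.6 to 50.8%, of 1455 counts) and 32.5% for cell 6 (29.0 to 36.2%, of 661 counts). The share was 2.79% for cell 3 (1.45 to 4.82%, of 430 counts) and 0.0302% for cell 2 (of 4005 counts). For cells 1 and 5, with a count of 0, the limit set by 3 counts was 6.82% of 44 counts and 1.40% of 214 counts, and the exact binomial intervals reached 8.04% and 1.71%. In the 4 cells with counts on the added copies (2, 3, 4 and 6), the beta sum was whole within 0.01 counts in 4 of 4 with all copies and in 0 of 4 with Hbb-bs and Hbb-bt alone, so in these cells the deposited values divide reads between versions. With the other version added, the alpha to beta ratio in TPM was 1.36 for cell 4 and 1.84 for cell 6, and the median over cells 1 to 6 was 1.85. The labels name 1 strain for all cells and no version of the beta cluster. Sequences of Hbb-b1 and Hbb-b2 were not used here. The intervals cover counting error only and leave out the uncertainty of dividing reads between versions.

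**Figure D3:**
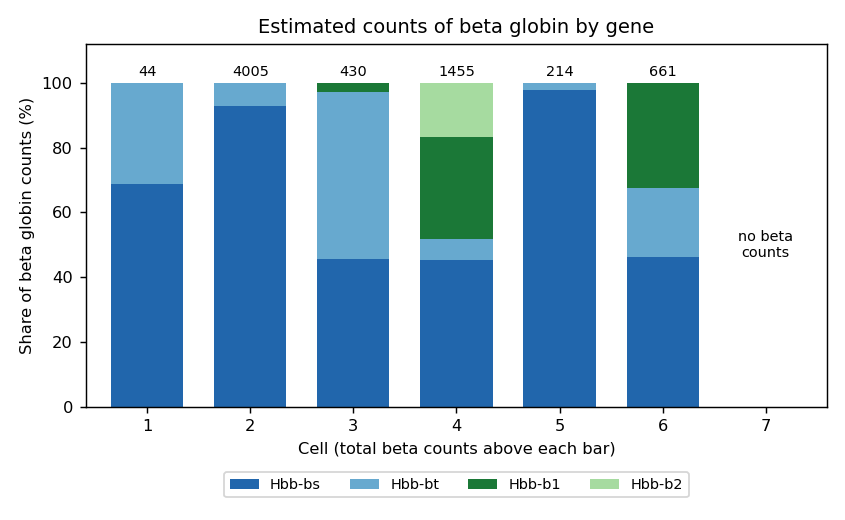
Share of each beta globin gene in the estimated beta counts of cells 1 to 6, in percent, with total counts above the bars. Hbb-b1 and Hbb-b2 (green) make up 48.2% of the bar of cell 4, 32.5% of cell 6 and 2.79% of cell 3, and cell 7 has no beta counts.

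Alas2, the erythroid check, was above 1 TPM in 0 of 7 cells, as were 44.9% of protein-coding genes. It had 2 counts in cell 2 (0.494 TPM) and 2 counts in cell 6 (0.317 TPM), and was at 0 in cells 1, 3, 4, 5 and 7. In those cells, 3 counts on the shortest listed transcript would give 0.627 to 2.48 TPM. The 2 counts of cell 2 stood beside 10319 globin counts, and those of cell 6 beside 1495. Alas2 thus stayed under 3 counts in every library, whether globin was high or low.

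Other genes of haem synthesis and transport were found unevenly, with 1 to 7 of 11 above 1 TPM per cell. Alad, the enzyme of the second step, led by median (32.5 TPM), with 504 TPM in cell 7 and 181 TPM in cell 2. Cpox, an enzyme of a late step, was highest in cell 1 (12.2 TPM). Alas1, the companion of Alas2, was above 1 TPM in cell 4 (45.8) and cell 5 (39.0). Abcb10, a mitochondrial transporter that red cell precursors need, reached 26.6 TPM in cell 2 and 22.3 TPM in cell 3. The sum of these genes was 504 TPM in cell 7, nearly all of it Alad, 398 TPM in cell 4 and 370.4 TPM in cell 2. The number detected was highest in cell 2 (7) and in cells 3 and 4 (5 each), the 3 cells with most haemoglobin in deposited TPM, and lowest in cell 7 (1). Cell 2 also had the largest share of protein-coding genes above 1 TPM (38.7%), and cell 7 the smallest (14.6%). Cell 5, with 2 of 11 detected, had a larger share (32.6%) than cell 3 (24.8%) or cell 4 (21.3%). By rescaled haemoglobin, cell 6, with 2 of 11 detected in deposited TPM, takes the place of cell 3. Whether the number detected follows haemoglobin was not tested.

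Other genes restricted to red cells and their precursors were mostly at 0. Of 18 erythroid-restricted markers, 17 had entries in all tables, 11 of them were at 0 in 7 of 7 cells and 5 were above 1 TPM in at least 1 cell. The other 12 were above 1 TPM in no cell, as were 44.9% of protein-coding genes. Those at 0 included Gata1 and Klf1, transcription factors of the lineage. Ermap, an erythroblast membrane protein gene, was above 1 TPM in 4 cells and highest in cell 2 (10.9 TPM). Rhag, which encodes a Rh-associated membrane protein, reached 7.19 TPM in cell 2 and 2.93 TPM in cell 4. Epb42, a membrane skeleton protein gene, reached 5.61 TPM in cell 3 and 2.98 TPM in cell 2. In cell 7, Slc4a1, the red cell anion exchanger, was at 4.78 TPM and Tspo2 at 1.85 TPM. The list's summed level was highest in cell 2 (21.6 TPM), which also had the most haemoglobin, and lowest in cell 6 (0.317 TPM), which held 961 TPM of haemoglobin. In a broader list of 32 erythroid genes, a median of 5 of 31 was above 1 TPM. The number was lowest in cell 6 (2, beside 17.3% of protein-coding genes) and highest in cell 2 (13, beside 38.7%). Of the 31, 17 were above 1 TPM in at least 1 cell and 14 in no cell, as were 44.9% of protein-coding genes. The broader list holds genes such as Car2 and Bnip3l, which neurons or glia also express.

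Among the other globins, Cygb, which encodes the widely expressed cytoglobin, was above 1 TPM in 5 cells. Its level for cells 1 to 7 in order was 0, 89.6, 61.6, 28.1, 55.0, 10.02 and 0 TPM. Neuroglobin (Ngb), the globin of nerve cells, had 7 counts (2.09 TPM) in cell 2 and none elsewhere. The embryonic genes Hba-x, Hbb-y and Hbb-bh1, the theta gene Hbq1a and the myoglobin gene Mb were at 0 in 7 of 7 cells. Hbb-bh2 had 7.86 counts in cell 2 (5.29 TPM), 3.65 in cell 5 (2.18 TPM) and 2 in cell 3 (1.13 TPM), and Hbq1b had 1 count in cell 1. Hbb-bh0 had an entry in cell 7 alone, at 0. Hba-x, Hbb-y and Hbb-bh1 were thus not detected beside the adult genes, while Hbb-bh2 passed 1 TPM in 3 cells on few counts.

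Markers of vessels and blood cells were low in most libraries. Endothelial genes (12 listed) summed to at most 0.363 TPM in cells 1 to 6 and to 84.4 TPM in cell 7. There Pecam1, an adhesion molecule of endothelium and blood cells, carried the sum (83.7 TPM), while Cldn5, Cdh5 and 5 others were at 0 in 7 of 7 cells. Mural cell genes (9 listed) summed to 47.5 TPM in cell 4, where Rgs5, Myl9 and Vtn were above 1 TPM, and to 0.0617 to 3.55 TPM elsewhere. Platelet genes (6 listed) summed to at most 16.9 TPM (cell 6), with Pf4 and Ppbp at 0 in 7 of 7 cells. Leukocyte genes (10 listed) summed to 133 TPM in cell 6, carried by S100a9, and to at most 0.890 TPM elsewhere, with Cd74 and S100a8 at 0. In cell 2, which had the highest haemoglobin, the endothelial and leukocyte sums were 0, the mural sum was 0.0617 TPM and the platelet sum was 6.30 TPM, all of it Itga2b. The part of blood or vessel material in the haemoglobin levels was not tested.

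Glial transcripts put the cells in another order. Oligodendrocyte genes, among them Mbp of the myelin sheath, summed to 113 TPM in cell 3 and 20793 TPM in cell 7. Microglial genes, led by Aif1 and C1qb, had a sum of 1.55 TPM in cell 6 and 2455 TPM in cell 7. Astrocyte genes, led by Aldoc and S100b, had a sum of 29.8 TPM in cell 5 and 2753 TPM in cell 7. Cell 7 was thus highest for all 3 glial lists and second lowest for haemoglobin, but its transcript index and the cell cannot be told apart. Without cell 7, the highest sums were 1288 TPM for oligodendrocyte genes (cell 5), 1550 TPM for microglial genes (cell 3) and 1154 TPM for astrocyte genes (cell 1). Cell 2, highest for haemoglobin, was at neither end for any of the 3 lists, with or without cell 7.

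**Figure D4:**
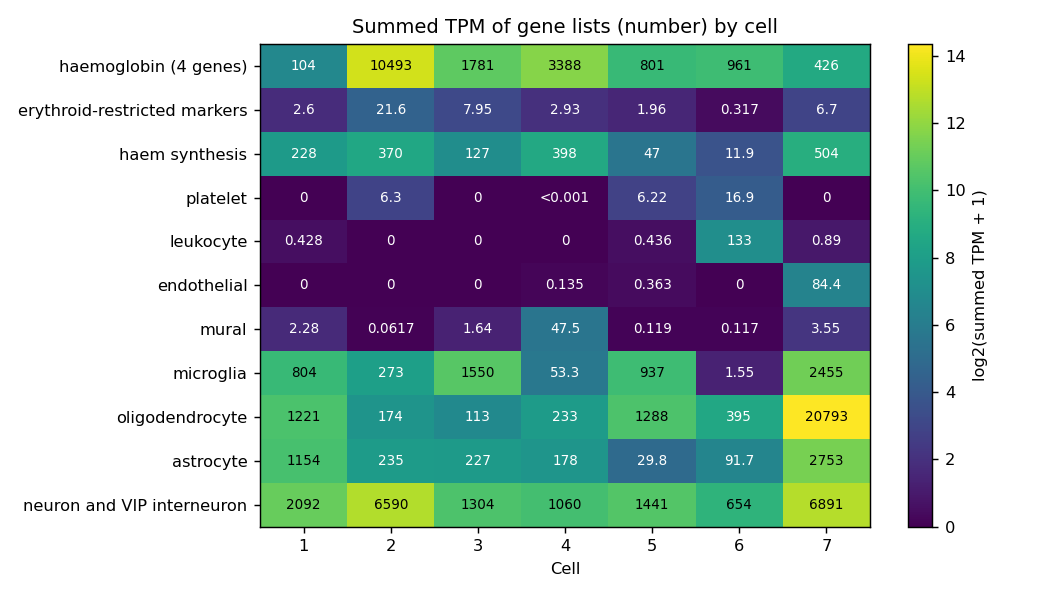
Summed TPM of the 4 globin genes and of 10 gene lists (one line each) in cells 1 to 7 (columns), with the value in each field and log2(summed TPM + 1) as colour. Haemoglobin is highest in cell 2 and lowest in cell 1, erythroid-restricted markers stay at or below 21.6 TPM, and the glial lists are highest in cell 7.

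The levels of the 4 globin genes moved in the same direction over cells 1 to 6. Pearson's r of log2(TPM + 1) was 0.92 for Hba-a1 with Hbb-bs and 0.94 for Hba-a2 with Hbb-bt, and lowest for Hbb-bs with Hbb-bt (0.63). With cell 7, where beta was at 0, r was 0.75 for Hba-a1 with Hbb-bs and 0.06 for Hba-a2 with Hbb-bt, and it was negative, at -0.17, for Hba-a2 with Hbb-bs (0.73 without cell 7). These values describe 6 or 7 points that share each library's scale. The genes most like the haemoglobin sum in level, of 3938 protein-coding genes above 1 TPM in at least 4 cells, were Asphd1 (r = 0.98 over 7 cells), Rmi2 (0.95), Gadd45gip1 (0.94), 9930021J03Rik (0.94) and Khdrbs1 (0.94). Asphd1 for cells 1 to 7 in order was at 0, 160.1, 7.66, 49.5, 6.13, 6.88 and 2.38 TPM, which is the order of the haemoglobin sum. They were picked as the highest of many over 7 cells, so their r has no test. On the rescaled values Asphd1 stayed the most alike and Rmi2 was number 26.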

How the data were processed

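RNA of 7 single neurons was measured by full-length cDNA sequencing. STAR 2.5.2a, kallisto and mm10 are named in the submitters' processing notes, with roles and settings not given in the sources used here. Estimated counts and TPM per transcript are as deposited, per the file headers. Identifiers in the deposited tables are RefSeq for cells 1 to 6 (107278 transcripts, 107277 in cell 6) and Ensembl for cell 7 (88197).

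Values were summed per symbol. Symbols turned into dates or missing were looked up by accession (122 and 81 repaired, in cells 1 to 6 and in cell 7); the rest held at most 0.482% of TPM and were left out. Detection was above 1 TPM. A floor is the TPM of 3 counts. Binomial (Clopper-Pearson) and Poisson intervals (95%) used counts rounded to whole numbers and cover counting error only. Coding sequences came from GENCODE M21 and promoters from RefSeq (5 of 5 members matched).

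The labels give 1 group and tie no cell to an animal, so no p-value was made; medians, ranges and SDs describe these cells. The members, 13 gene lists, alternatives and naming rule were chosen with earlier results of these data known. The rule named the members, other globins, up to 4 leading genes of each list, detected erythroid-restricted markers and the 5 genes most like the haemoglobin sum. Other listed genes, such as Abcb10, Klf1, Cldn5, Pf4 and S100a9, were named after their values were seen. A few listed genes are not reported here. The likeness measure was tested on simulated data. Python 3.11.15, pandas 2.3.3, numpy 2.4.6, scipy 1.17.1, biopython 1.88 and matplotlib 3.10.9 were used. Alternatives were other thresholds, scales, pseudocounts, the highest transcript, added beta copies and each cell left out.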

Additional observations from a re-analysis of the deposited data

Results flagged for a closer look

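Signal lay on adult beta globin copies outside the member genes. Hbb-b1 had 12.0 counts in cell 3, 456 in cell 4 and 215 in cell 6, and Hbb-b2 had 244 counts in cell 4, each more than the 3 counts taken as the limit of a count of 0.

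Single cells whose log2 value left a wide gap to the rest of the group were looked for in 67 genes and sums, and 12 had such a cell. Chance gives about 1 in 20, and genes at 0 in most cells show such gaps easily. None of the 5 members and none of the haemoglobin, alpha and beta sums was among them. Cell 7 was high for Slc4a1 (4.78 TPM), Tspo2 (1.85), Cd3e (0.241) and the endothelial sum (84.4), and low for Gad2 (0.218 TPM). Cell 1 was high for Hbq1b (0.355 TPM) and Cspg4 (0.0691), cell 2 for Ngb (2.09) and cell 3 for Acta2 (0.309). Cell 4 was high for the mural sum (47.5 TPM), and cell 6 for Gp1bb (16.9 TPM) and the leukocyte sum (133).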

How the results depend on the processing

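The alpha to beta ratio stayed within 1 SD over cells (1.25) of its median (2.70) under all 14 alternatives run. It still fell to 1.85 with Hbb-b1 and Hbb-b2 added, and to 1.58 with them in counts. Rescaling cannot change the ratio, nor can leaving out cell 7, which has no ratio. The haemoglobin sum stayed within 1 SD (3662 TPM) under 10 of 11, but this SD exceeds the median, so no fall could leave it. Rescaled over the shared protein-coding genes, the median haemoglobin sum was 6880.5 TPM, against 961 as deposited. Alas2 counted as detected in 2 cells above 0 TPM and in 1 cell (cell 6, 2 counts) after rescaling, against 0 cells above 1 TPM, and in 0 cells with at least 3 counts. The median number of erythroid-restricted markers per cell was 2 above 0 TPM and 0 above 10 TPM, against 1. The number of members above 1 TPM in every cell was 1, and 3 without cell 7. The SD of the log2 haemoglobin sum was 2.13, and 1.14 without cells 1 and 2, a setting added after the values were seen, as were the fold range without each cell and the ratio in counts with Hbb-b1 and Hbb-b2 added. Leaving out each cell in turn gave 881 to 1371 TPM for the sum, 2.64 to 2.75 for the ratio, 1.66 to 2.34 for the SD, 1 to 3 members, 0 cells with Alas2 and 1 to 1.5 erythroid markers. No paired analysis was possible because there is 1 group. Counting error was widest for cell 1, which had 85 globin counts.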

Other observations

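Genes that store iron and clear haem were described apart from the globins. The ferritin genes Fth1 and Ftl1, which encode the iron storage protein, were above 1 TPM in 7 of 7 cells, with Fth1 between 549.7 (cell 6) and 15779 TPM (cell 7). Hmox2, the constitutive haem oxygenase, was above 1 TPM in 5 cells, with a highest level of 272 TPM (cell 7) and 0 TPM in cells 4 and 6. Slc48a1, a haem transporter, was above 1 TPM in 4 cells and highest in the 3 cells with most haemoglobin in deposited TPM (on rescaled values cell 6, where Slc48a1 was at 0, takes the place of cell 3), at 84.9 TPM (cell 2), 78.7 TPM (cell 3) and 47.2 TPM (cell 4). Hmox1, the inducible haem oxygenase, and Hp and Hpx, the plasma proteins that bind free haemoglobin and haem, were at 0 in 7 of 7 cells. The list summed to 1007 to 19407 TPM over 12 genes with entries in all tables.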
